A study of Saccharomyces cerevisiae with 21 samples.

Results

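The nuclear genes of the respiratory chain were examined as a set of 39 genes of baker's yeast, Saccharomyces cerevisiae, out of 7123 features with values. They were taken by name and not by a cutoff on measured values, though the list was chosen with earlier results of these data known. The set holds the 4 subunits of succinate dehydrogenase (complex II), 8 genes of the cytochrome bc1 complex (complex III), both isoforms of cytochrome c, 8 genes of cytochrome c oxidase (complex IV), 13 genes of the ATP synthase (complex V), the 3 NADH dehydrogenases and the regulator HAP4. All 39 were found, and all 39 passed the filter on low values in every comparison. Their lowest value in any library was 1.68 RPM (reads of a gene per megaread of its library), which stood for 27 reads in NDE2, and their highest was 1339.9 RPM, in ATP2.

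The 21 RNA sequencing libraries came from 8 groups of cultures in 2 series. In series 1 these were BY4741ΔP (numbers 1 to 3), Tpho84-Tcyc1 (1 to 3) and BY4741 (1 to 3), and in series 2 BY4741ΔU (1 to 3), ume6Δ (1 to 3), pho4Δ (1 and 2), pho84Δ (1 and 2) and BY4741 (4 and 5). The placing of the BY4741 libraries was inferred from their numbers and the design text. BY4741 is a haploid laboratory strain; UME6 encodes a DNA-binding repressor of early meiotic and some metabolic genes, PHO4 the activator of phosphate-starvation genes and PHO84 a high-affinity phosphate transporter, and the deletion of each is named by its group. The labels explain neither ΔP, ΔU nor Tpho84-Tcyc1, and no meaning was assumed for them. All groups had the same treatment: growth at 30 °C in phosphate-free synthetic medium to which KCl (50 mM), potassium phosphate (7.2 mM), leucine, histidine, methionine and uracil had been added. Replicate cultures of a strain shared 1 overnight culture, and the spread that each p-value rests on is that among these cultures, not among separately made strains.

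Electrons enter the yeast respiratory chain through complex II and through NADH dehydrogenases of a single polypeptide each, since this yeast has no proton-pumping complex I. They pass by way of ubiquinone to complex III, then by cytochrome c to complex IV and oxygen, and complex V uses the proton gradient to make ATP. Yeast represses many of these genes while it ferments glucose. The HAP complex (Hap2, Hap3, Hap4 and Hap5), of which Hap4 is the activating subunit, binds CCAAT-containing promoter elements and raises their transcription when respiration is needed.

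Library depth was 10.98 to 49.8 megareads, with a median of 17.9 megareads. The deleted genes had few or no reads in the mutants named for them: PHO4 had 1 and 2 reads in pho4Δ, UME6 had 4, 0 and 2 reads in ume6Δ, and PHO84 had 2 and 2 reads in pho84Δ. PHO84 had 0.807, 1.42 and 1.23 RPM in Tpho84-Tcyc1, against 157, 135 and 76.2 RPM in BY4741 of series 1. BY4741ΔP number 2 stood apart from numbers 1 and 3 for many of the short members, and results that rest on it are given with and without it. The 7 mitochondrially encoded partners of these proteins (COX1, COX2, COX3, COB, ATP6, ATP8 and OLI1) were listed at 0 reads in all 21 libraries and could not be compared. The sources used here do not say how reads shared by similar genes or by both strands were counted, so reads of the paralog pairs CYC1 and CYC7, NDE1 and NDE2, and COX5A and COX5B may in part be mixed. Because RPM is a share of a library, less RNA of a gene per cell and a larger share of other RNA cannot be told apart.

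The 500 bases before each start codon were read from the RefSeq genome of build R64 and searched on both strands for 2 elements chosen after the expression values were seen, the site TNATTGGT of the HAP complex and the core GGCGGC of the URS1 element that Ume6 binds. TNATTGGT was present in front of 18 of the 39 members (46.2%), against 8.59% of 6006 promoters. It contains ATTGG, the reverse complement of CCAAT, and the short core CCAAT alone stood before 35 members (89.7%) and before 62.4% of all promoters. GGCGGC was present before 8 members (20.5%), against 9.57% of all. The 8 members with GGCGGC are shown since 7 of them rose in ume6Δ, and 3 sites of the HAP complex are shown for members that rose in both BY4741ΔU and ume6Δ. Capitals mark the match, and each sequence reads 5′ to 3′ on the strand of its gene, so that GCCGCC and ACCAAT stand for matches on the other strand.
SDH1 (chrXI:171299-171324, minus strand): gccacgtcgaGGCGGCttgaagctta
SDH2 (chrXII:54087-54112, minus strand): gcgcgcaaaaGGCGGCctcgcattgg
CYT1 (chrXV:446939-446960, plus strand): atttccGGCGGCcaaaaaatgc
RIP1 (chrV:106768-106793, plus strand): atatagcttgGGCGGCtattcatgcg
COX5A (chrXIV:531600-531625, plus strand): cgatacaagcGGCGGCgaaaagttaa
ATP2 (chrX:647150-647175, plus strand): tacgcaattaGCCGCCcatatgccac
ATP7 (chrXI:408415-408440, minus strand): gctttaaattGCCGCCgaagtcaagt
ATP20 (chrXVI:599669-599694, plus strand): cgattgagtgGGCGGCttttttctta
NDE1 (chrXIII:556561-556588, minus strand): attctggtaaACCAATTAaagagagaaa
COX13 (chrVII:144585-144612, plus strand): tttttttcccACCAATGAgaggcggtac
HAP4 (chrXI:232122-232149, plus strand): ccacacatatTTATTGGTctcctagtac
RIP1 holds a second GGCGGC and NDE1 a second TNATTGGT, which are not shown. A match is a string of letters and was not tested as a binding site.

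Levels of different genes were compared as RPM per kilobase of coding sequence. In BY4741 of series 2, ATP2, the catalytic beta subunit of the F1 part of ATP synthase, was highest at 666 ± 37.4 RPM per kb (SD, n = 2). QCR7, a small subunit of complex III, followed with 491 ± 5.91 RPM per kb, and ATP17, a subunit of the membrane part of ATP synthase, with 466 ± 47.2 RPM per kb. The difference between these 2 neighbours in the order was smaller than the SD of ATP17. At the low end stood NDE2, the second NADH dehydrogenase of the outer face of the inner membrane, with 1.60 ± 0.81 RPM per kb, and CYC7, the cytochrome c isoform known for oxygen-poor cells, with 15.8 ± 2.79 RPM per kb. Subunits of complex II were low for a complex of the chain, from 52.9 ± 7.37 RPM per kb for the flavoprotein SDH1 to 130.3 ± 18.7 RPM per kb for the membrane anchor SDH3.

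The 39 members together took up 5112 to 6688 RPM of a library. They summed to 5495 ± 138 RPM in BY4741ΔU and 6509 ± 218 RPM in ume6Δ, against 5338 ± 265 RPM in BY4741 of series 2 (SD, n = 3, 3 and 2). Complex V summed to 2647 ± 101 RPM in BY4741ΔU and 3551 ± 141 RPM in ume6Δ, against 3132 ± 162 RPM in BY4741, while complex IV summed to 779 ± 33.2 RPM in BY4741ΔU and 783 ± 11.7 RPM in ume6Δ, against 655 ± 15.8 RPM in BY4741. The sums are descriptions, to which no test was applied.

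**Figure D1:**
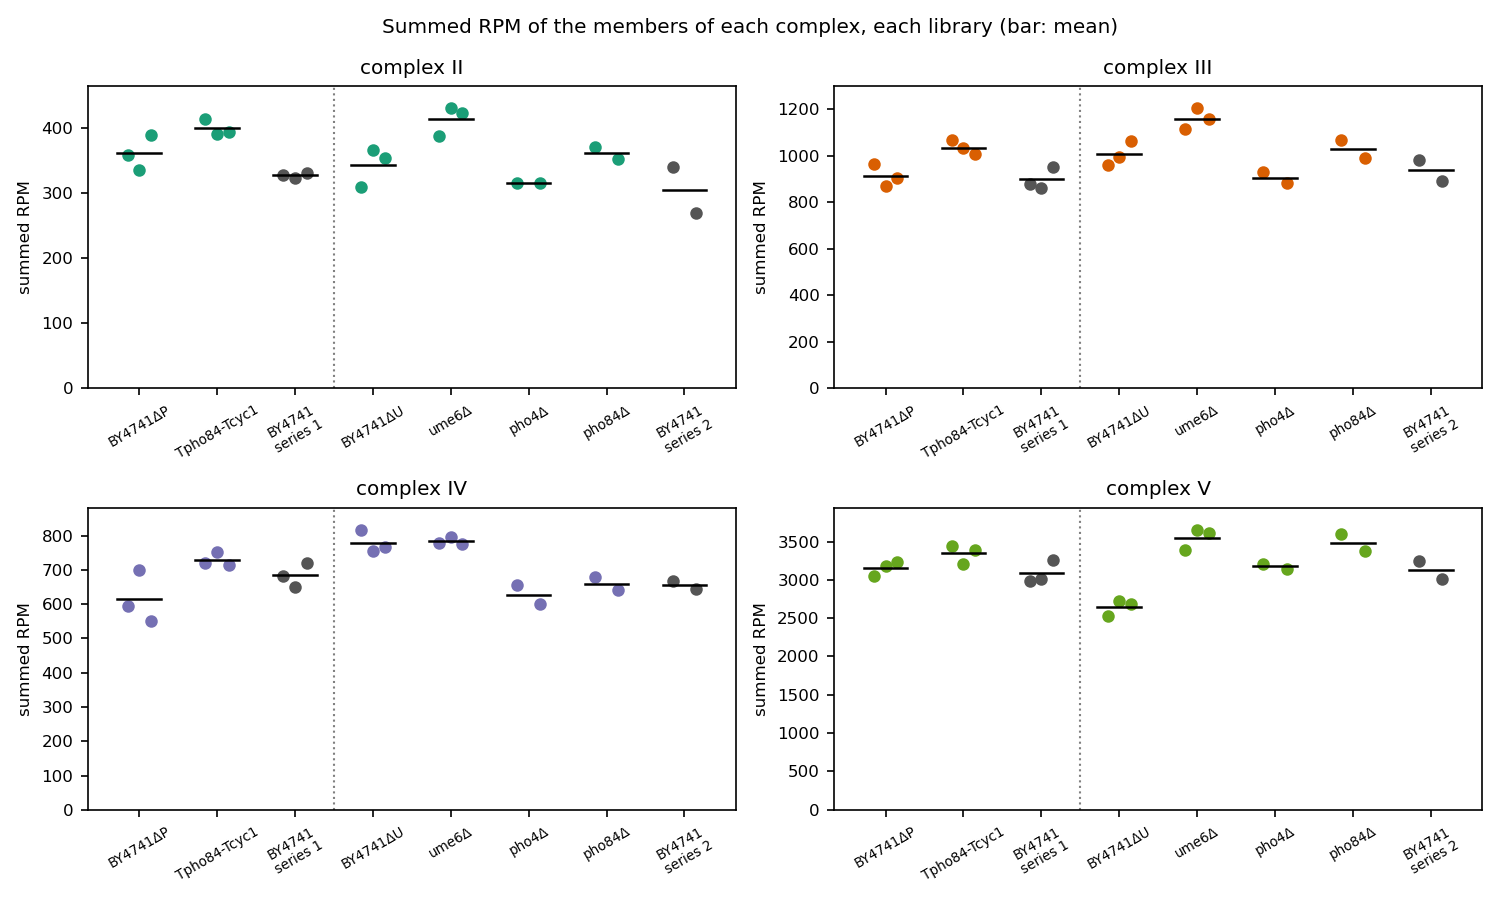
Summed RPM of the members of complexes II, III, IV and V in each library (points) with the group mean (bar), series 1 left and series 2 right of the dotted line. Complex V lay lower in the 3 BY4741ΔU libraries (mean 2647 RPM) than in all other libraries, and complex IV was higher in BY4741ΔU and ume6Δ (means 779 and 783 RPM) than in all others.

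In BY4741ΔU the cytochrome c genes and the external NADH dehydrogenases changed most. Both cytochrome c genes, NDE1 and NDE2 rose by 1.70 to 1.96 on the log2 scale, some subunits of complexes II, III and IV were called higher by less, and the large subunits of the F1 part of ATP synthase were lower. Of the 39 members, 18 were called higher and 5 lower (adjusted p under 0.05, limma), where 49.7% of all genes tested were called, 36.5% higher and 13.2% lower. The median log2 difference was 0.21 for the members and 0.15 for all genes tested. Rescaling the libraries by TMM (trimmed mean of M-values) moved the median of all genes to 0.02, and the members then divided into 10 higher and 10 lower, where 23.3% of all genes were higher and 23.9% lower. Small increases in this comparison thus depend on the scale, and those that did not hold after rescaling are named with their complex.

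CYC1, which encodes the main cytochrome c of aerobic cells, had 118, 89.9 and 87.1 RPM in BY4741ΔU, against 20.6 and 32.2 RPM in BY4741 of series 2. CYC7, its minor isoform, had 25.1, 23.3 and 22.8 RPM in BY4741ΔU, against 6.08 and 4.73 RPM in BY4741. In both genes every BY4741ΔU library lay far above both BY4741 libraries. The change in CYC1 was a log2 difference of 1.88 ± 0.16 (SE, adjusted p = 1.06e-06), and that in CYC7 a log2 difference of 1.96 ± 0.19 (SE, adjusted p = 3.22e-06). Per length, CYC7 made up 19.1% ± 1.74 of the 2 isoforms in BY4741ΔU, against 17.3% ± 6.89 in BY4741 (SD, n = 3 and 2), so the share did not differ beyond its spread.

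NDE1, the main NADH dehydrogenase facing the cytosol, had 375, 391.9 and 372 RPM in BY4741ΔU, against 89.1 and 129 RPM in BY4741. Its paralog NDE2 had 9.56, 9.84 and 11.7 RPM in BY4741ΔU, against 3.56 and 1.68 RPM in BY4741. NDI1, which oxidises NADH on the matrix side, had 87.1, 109 and 109 RPM in BY4741ΔU, against 81.5 and 70.1 RPM in BY4741. The 3 genes did not overlap between the groups, which was so for 25 of the 39 members and 59.7% of all genes tested. The external enzymes moved further than the internal one. The log2 differences were 1.82 ± 0.11 for NDE1 (adjusted p = 6.83e-08), 1.70 ± 0.20 for NDE2 (adjusted p = 1.47e-05) and 0.42 ± 0.10 for NDI1 (SE, adjusted p = 0.00277).

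**Figure D2:**
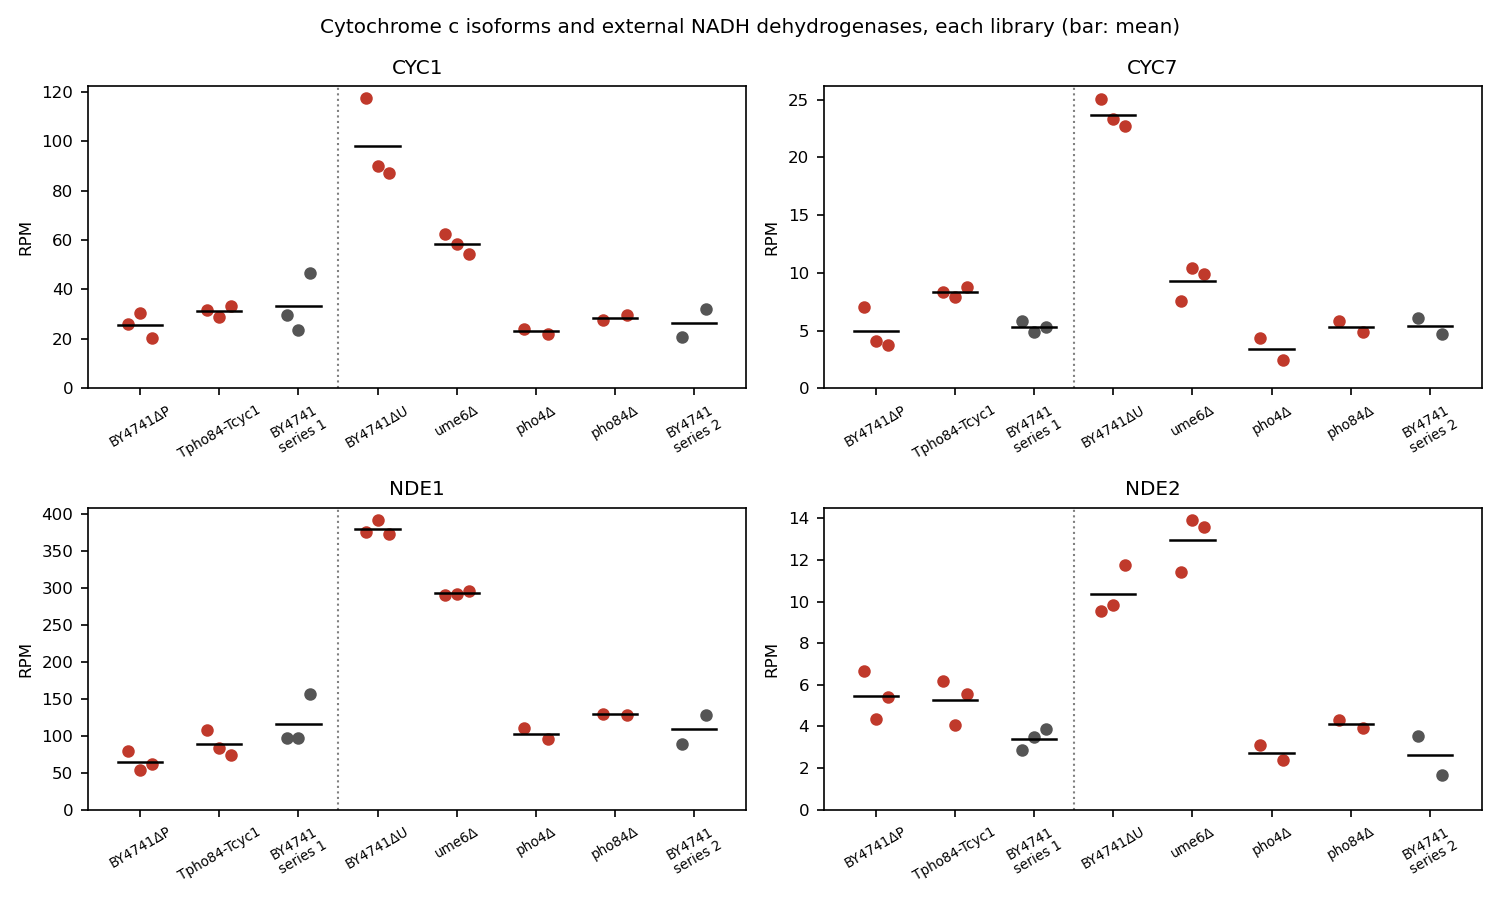
RPM of CYC1, CYC7, NDE1 and NDE2 in each library (points) with the group mean (bar), mutants in red and BY4741 in grey, series 1 left and series 2 right of the dotted line. In BY4741ΔU all 4 genes lay above every BY4741 library, and NDE2 reached its highest values, 13.9 and 13.6 RPM, in 2 ume6Δ libraries.

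Complex II passes electrons from succinate to ubiquinone. Its flavoprotein SDH1 had 84.9, 101 and 95.8 RPM in BY4741ΔU, against 112 and 91.6 RPM in BY4741, and was not called (log2 difference -0.11, adjusted p = 0.356). The iron-sulphur subunit SDH2 had 83.1, 97.2 and 96.8 RPM in BY4741ΔU, against 84.8 and 69.8 RPM in BY4741. The anchor SDH3 had 84.0, 96.2 and 93.4 RPM in BY4741ΔU, against 85.6 and 69.9 RPM in BY4741, and the second anchor SDH4 had 56.8, 71.9 and 67.7 RPM, against 57.1 and 38.7 RPM in BY4741. In SDH2, SDH3 and SDH4 the 2 groups overlapped, although these 3 genes were called higher with log2 differences of 0.26, 0.23 and 0.46. None of these 3 calls held after TMM rescaling, which called SDH1 lower instead (-0.25).

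In complex III, 4 of 8 genes were called higher and 1 lower, where 36.5% of all genes were higher and 13.2% lower. CYT1, the cytochrome c1 subunit that hands electrons to cytochrome c, had 115, 129 and 139 RPM in BY4741ΔU, against 95.9 and 83.8 RPM in BY4741, a log2 difference of 0.50 ± 0.09 (SE, adjusted p = 0.000418). RIP1, the Rieske iron-sulphur protein, and the small subunits QCR8 and QCR10 were the others, at log2 differences of 0.31, 0.33 and 0.48. COR1, a core subunit without redox centres, fell by 0.27 on the log2 scale. After TMM rescaling CYT1 and QCR10 remained called higher and COR1 lower, while RIP1 and QCR8 were not called.

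In complex IV, 5 of 8 genes were called higher and none lower, where 36.5% of all genes were higher and 13.2% lower. COX9 had 92.1, 88.4 and 97.3 RPM in BY4741ΔU, against 58.3 and 59.4 RPM in BY4741, with a log2 difference of 0.64. COX12 and COX13, small subunits that do not take part in electron transfer, differed by 0.51 and 0.50, and COX5A and COX7 by 0.22 and 0.30 on the log2 scale. The first 3 of these were called under every alternative that was run. COX5A and COX7 were not called after TMM rescaling, and COX4 was then called lower (-0.27). COX5B, the isoform that replaces COX5A when oxygen is scarce and that is no member of the set, had 94.5, 91.0 and 102 RPM in BY4741ΔU, against 76.5 and 71.2 RPM in BY4741, and per length made up 45.8% ± 0.683 of the pair in BY4741ΔU, against 43.2% ± 1.96 in BY4741.

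Complex V went the other way. None of its 13 genes was called higher in BY4741ΔU and 4 were called lower, where 36.5% of all genes were higher and 13.2% lower. The 4 were ATP1, ATP2 and ATP3, the alpha, beta and gamma subunits of the F1 part, and ATP4, a subunit of the stalk that holds it. ATP2 had 703, 813 and 796 RPM in BY4741ΔU, against 1063 and 982 RPM in BY4741, a log2 difference of -0.41 ± 0.07 (SE, adjusted p = 0.000522). ATP1 fell by 0.33, ATP3 by 0.33 and ATP4 by 0.17 on the log2 scale. In all 4 genes the groups did not overlap, as in 59.7% of all genes tested. TMM rescaling added ATP5, ATP16 and ATP17 to the genes called lower, for 7 of 13, and again called none higher. The median log2 difference over the 13 genes was -0.10, against 0.26 in complex IV and 0.26 in complex III.

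HAP4, the activating subunit of the HAP complex, had 104, 111 and 101 RPM in BY4741ΔU, against 88.9 and 89.3 RPM in BY4741. The groups did not overlap, as in 59.7% of all genes tested. The log2 difference was 0.24 (limma, adjusted p = 0.02), and it was 0.10 after TMM rescaling, where it was not called. The 16 members not called had log2 differences from -0.17 in ATP17 to 0.32 in ATP18. In all, 11 of the 23 calls in BY4741ΔU were kept under every alternative: CYT1, CYC1, CYC7, COX9, COX12, COX13, NDI1, NDE1 and NDE2 higher, and ATP2 and ATP3 lower. Without BY4741 number 5 there were 15 calls, 11 higher and 4 lower, and 37.6% of all genes were called. The coding length of the genes moved with this comparison: over all genes tested, the median log2 difference was 0.24 in the shortest tercile and 0.09 in the longest tercile, and 28 of the 39 members lie in the shortest tercile. Once the trend with length was taken out, 9 members were called higher and 10 lower, where 25.4% of all genes were higher and 23.9% lower.

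**Figure D3:**
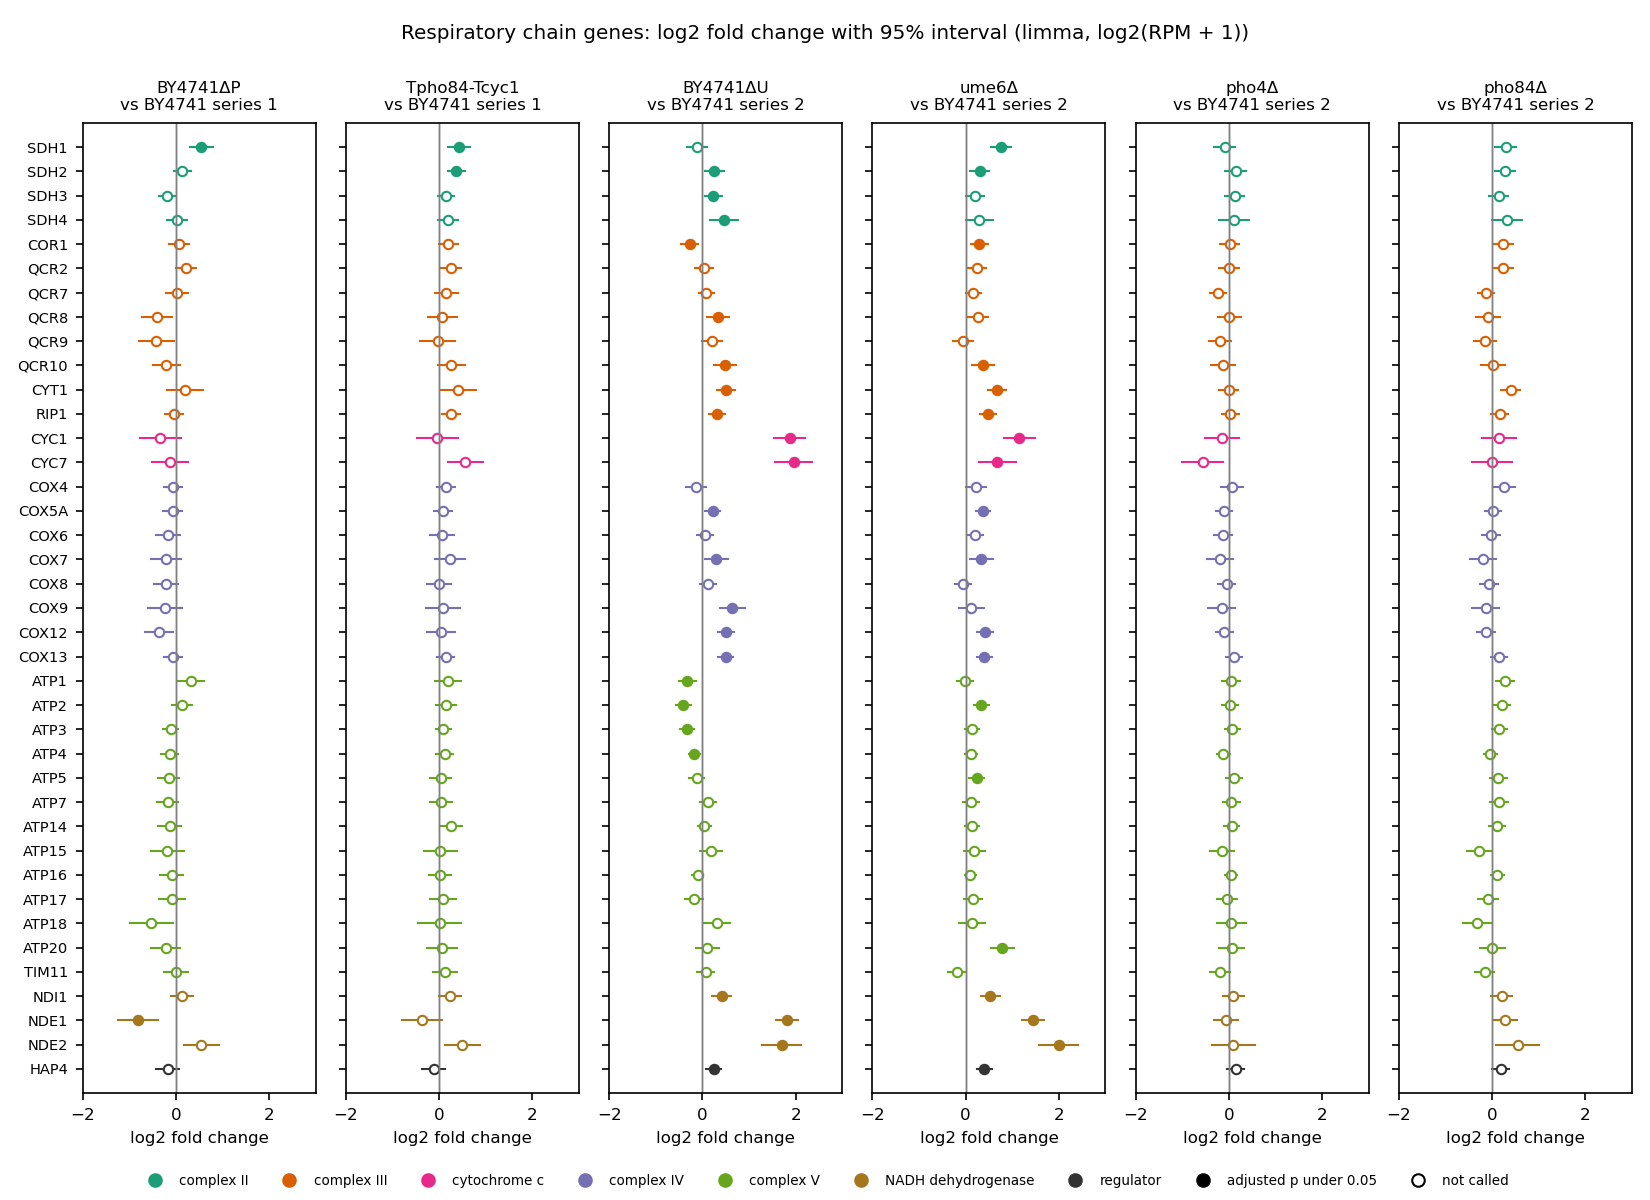
Log2 difference of each member with its 95% interval (limma, log2(RPM + 1)) in the 6 strains against BY4741 of their series, coloured by complex, filled where called. CYC1, CYC7, NDE1 and NDE2 lie farthest to the right in BY4741ΔU, and NDE2, NDE1 and CYC1 in ume6Δ, where CYC7 lies at 0.68 among SDH1, ATP20 and CYT1. In BY4741ΔU the ATP1 to ATP4 points lie left of 0.

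In ume6Δ, 19 of the 39 members were called higher and none lower, where 34.4% of all genes were called, 23.1% higher and 11.3% lower. NDE2, NDE1 and CYC1 rose most, ATP20, SDH1, CYC7 and CYT1 followed, and calls were made in each of complexes II to V. The median log2 difference was 0.26 for the members and 0.04 for all genes. TMM rescaling left 17 members higher and called 1, TIM11, a subunit of the membrane part of ATP synthase, lower (-0.23). After rescaling 20.7% of all genes were called higher and 16.1% lower. BY4741ΔU and ume6Δ were set against the same 2 BY4741 libraries, so that the 14 members called higher in both comparisons are in part one observation.

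NDE1 had 291, 292 and 296 RPM in ume6Δ, against 89.1 and 129 RPM in BY4741 of series 2, a log2 difference of 1.44 ± 0.11 (SE, adjusted p = 1.27e-07). NDE2 had 11.4, 13.9 and 13.6 RPM in ume6Δ, against 3.56 and 1.68 RPM in BY4741, a log2 difference of 1.99 ± 0.20 (SE, adjusted p = 1.71e-06). NDI1 had 107, 111 and 109.9 RPM in ume6Δ, against 81.5 and 70.1 RPM in BY4741, with a log2 difference of 0.53. All 3 were higher in each ume6Δ library than in either BY4741 library, and the external enzymes again moved further than the internal one. The 2 groups did not overlap in 31 of the 39 members and in 56.4% of all genes tested. NDE2 made up 4.35% ± 0.417 of the external pair per length in ume6Δ, against 2.63% ± 1.85 in BY4741, whose 2 libraries were wide apart.

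CYC1 had 62.5, 58.6 and 54.5 RPM in ume6Δ, against 20.6 and 32.2 RPM in BY4741, a log2 difference of 1.15 ± 0.16 (SE, adjusted p = 4.53e-05). CYC7 had 7.55, 10.4 and 9.91 RPM in ume6Δ, against 6.08 and 4.73 RPM in BY4741, a log2 difference of 0.68 ± 0.19 (SE, adjusted p = 0.0114). In CYC7 the lowest ume6Δ library came close to the highest BY4741 library, and the call was lost without BY4741 number 5 (adjusted p = 0.12).

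SDH1 had 156, 183 and 176 RPM in ume6Δ, against 112 and 91.6 RPM in BY4741, a log2 difference of 0.75 ± 0.10 (SE, adjusted p = 2.83e-05). The other 3 subunits of complex II moved less. SDH2 had 89.0, 94.9 and 101 RPM in ume6Δ, against 84.8 and 69.8 RPM in BY4741, and was called (log2 difference 0.30). SDH3 had 89.8, 91.2 and 86.1 RPM in ume6Δ, against 85.6 and 69.9 RPM in BY4741, and SDH4 had 52.6, 61.2 and 60.2 RPM in ume6Δ, against 57.1 and 38.7 RPM in BY4741. Neither anchor was called, and SDH4 overlapped between the groups.

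In complex III, CYT1 had 136, 149 and 144 RPM in ume6Δ, against 95.9 and 83.8 RPM in BY4741, a log2 difference of 0.67 ± 0.09 (SE, adjusted p = 3.54e-05). RIP1, COR1 and QCR10 were also called higher, at 0.48, 0.30 and 0.37 on the log2 scale, and no gene of the complex was called lower. In complex IV, COX5A, COX7, COX12 and COX13 were called higher, by 0.34 to 0.42 on the log2 scale. The call of COX7 held under 3 of 11 alternatives and was lost after TMM rescaling, by edgeR and by DESeq2, while SDH2, COR1 and QCR10 lost theirs without BY4741 number 5 or ume6Δ number 2. COX5B, the alternative to COX5A, had 117, 109 and 106 RPM in ume6Δ, against 76.5 and 71.2 RPM in BY4741 (log2 difference 0.58, adjusted p = 5.65e-05).

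In complex V, 3 of 13 genes were called higher, near the share of 23.1% over all genes. They were ATP2, ATP5, the subunit that links the F1 part to the stalk, and ATP20, a subunit of the membrane part that takes part in joining synthases into dimers. ATP20 had 69.4, 63.5 and 59.0 RPM in ume6Δ, against 39.4 and 34.1 RPM in BY4741, with a log2 difference of 0.78 (adjusted p = 9.12e-05). The call of ATP5 was lost after TMM rescaling, by edgeR, and without BY4741 number 5, ume6Δ number 2 or ume6Δ number 3. HAP4 had 114, 118 and 122 RPM in ume6Δ, against 88.9 and 89.3 RPM in BY4741, and its log2 difference of 0.40 (adjusted p = 0.00105) was called under every alternative. The 20 members not called had log2 differences from -0.18 in TIM11 to 0.29 in SDH4. Of the 19 calls, 13 were kept under every alternative, and without BY4741 number 5 there were also 13. Over all genes tested, the medians of the shortest and the longest tercile were 0.04 and 0.05, so coding length moved little with this comparison.

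The motif that Ume6 binds and the calls in ume6Δ were set side by side. Of the 8 members with GGCGGC within 500 bases of the start codon, 7 were called higher in ume6Δ (SDH1, SDH2, CYT1, RIP1, COX5A, ATP2 and ATP20), against 12 of the 31 members without it. Over all genes tested with a promoter in R64, 43.7% of those with the motif were called higher, against 21.1% of those without it. The 8th member, ATP7, had a log2 difference of 0.10 and was not called. The members with the largest differences, NDE1, NDE2 and CYC1, had no GGCGGC in this window. In BY4741ΔU 4 of the 8 members with the motif and 14 of the 31 without it were called higher, where 41.4% of all genes with it and 36.7% of those without it were.

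TNATTGGT was set beside the calls in the same way. In ume6Δ, 8 of 18 members with the site were called higher, against 11 of 21 without it, and over all genes 22.5% with the site and 23.3% without it. In BY4741ΔU, 6 of 18 members with the site and 12 of 21 without it were called higher, and over all genes 36.8% and 37.2%. NDE1 holds 2 such sites, 103 and 10 bases before its start codon, whereas CYC1 and NDE2 hold none in this window, and the 3 genes rose in both strains. The counts are descriptions of these windows and leave untested whether a factor binds there.

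A direct comparison of ume6Δ with BY4741ΔU found calls in both directions. Its log2 differences use no BY4741 library, though those of series 2 are in the fit behind its p-values. SDH1 and 8 genes of ATP synthase were higher in ume6Δ, and both cytochrome c genes and NDE1 were lower there. Of the 39 members, 11 were called higher and 6 lower, where 48.8% of all genes were called, 20.1% higher and 28.7% lower. TMM rescaling gave 19 higher and 4 lower, where 27.9% of all genes were higher and 20.3% lower. It left all of the 17 calls in place but those of QCR9 and TIM11, the 2 calls of the 17 that did not hold under every alternative.

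SDH1 averaged 172 ± 13.6 RPM in ume6Δ and 93.7 ± 8.05 RPM in BY4741ΔU (SD, n = 3 each), a log2 difference of 0.87 ± 0.09 (SE, adjusted p = 1.83e-06). CYC7 averaged 9.29 ± 1.53 RPM in ume6Δ and 23.7 ± 1.198 RPM in BY4741ΔU, a log2 difference of -1.27 ± 0.17 (SE, adjusted p = 2.34e-05). CYC1 averaged 58.5 ± 4.02 RPM in ume6Δ and 98.2 ± 16.8 RPM in BY4741ΔU, a log2 difference of -0.73 ± 0.14 (SE, adjusted p = 0.000685). The libraries of the 2 strains did not overlap in any of these genes, which was so for 22 of the 39 members and 55.9% of all genes tested. NDE1 had a log2 difference of -0.37 and was called lower in ume6Δ, while NDE2 differed by 0.30 and was not called.

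In complex V, 8 of 13 genes were higher in ume6Δ than in BY4741ΔU, where 20.1% of all genes were. They were ATP1, ATP2, ATP3, ATP4, ATP5, ATP16, ATP17 and ATP20, with log2 differences from 0.20 in ATP16 to 0.75 in ATP2. TIM11 was called lower (-0.25). ATP2, chosen here after its values were seen, had 1227, 1339.9 and 1306 RPM in ume6Δ and 703, 813 and 796 RPM in BY4741ΔU, with BY4741 between them at 1063 and 982 RPM. ATP2 and COR1 were the 2 members called lower in BY4741ΔU and higher in ume6Δ against BY4741. COR1 differed by 0.57 between the 2 mutants, COX4, a subunit of complex IV, by 0.35, and COX9 by -0.52 on the log2 scale. HAP4 differed by 0.16 and was not called on RPM, but was called higher in ume6Δ after TMM rescaling (0.25).

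**Figure D4:**
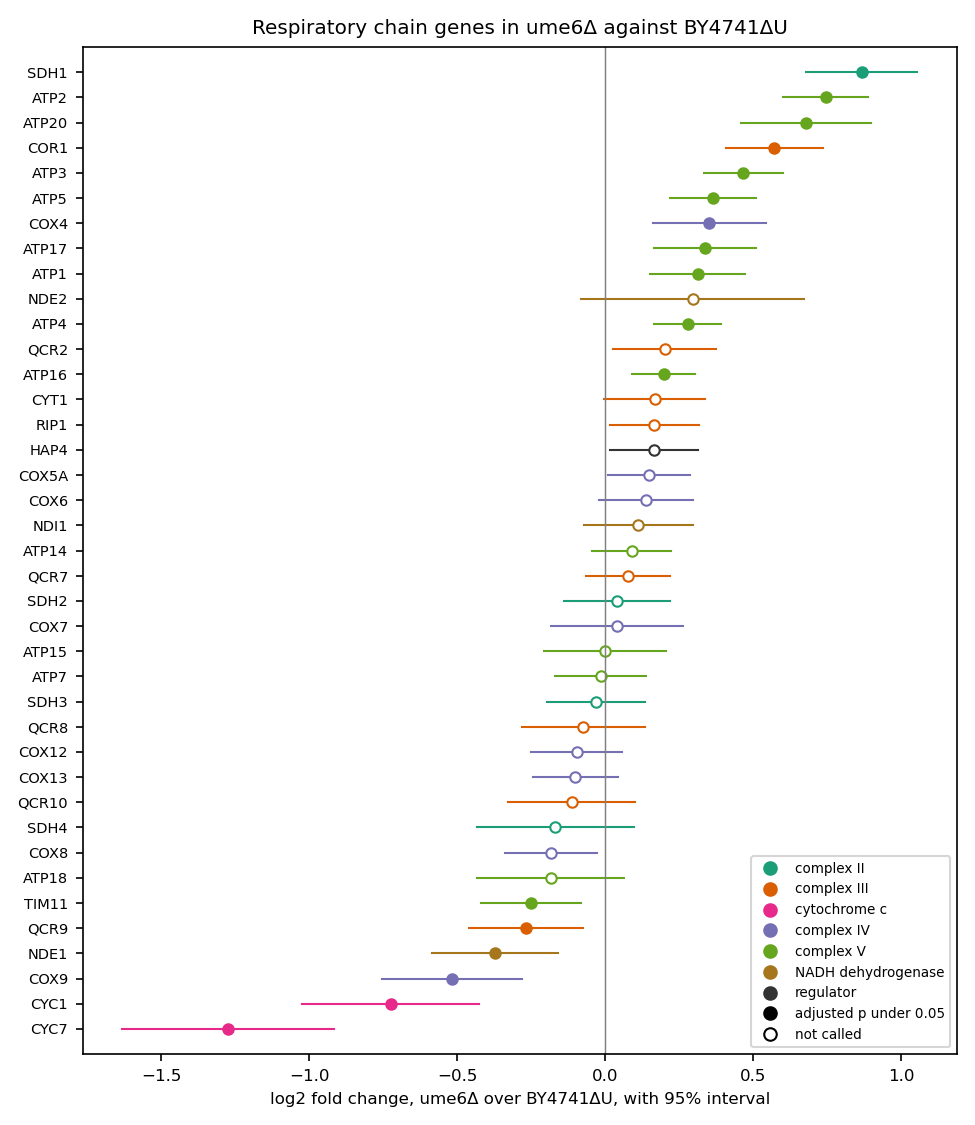
Log2 difference of each member between ume6Δ and BY4741ΔU with its 95% interval, ordered by size, coloured by complex and filled where called. SDH1 and 8 complex V genes lie right of 0 (higher in ume6Δ), CYC7, CYC1, COX9 and NDE1 left of it.

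In series 1 few members changed. In BY4741ΔP, SDH1 was higher and NDE1 lower than in BY4741, and no other member was called, where 9.47% of all genes were called, 5.8% higher and 3.67% lower. SDH1 had 129.9, 100.1 and 133 RPM in BY4741ΔP, against 80.0, 77.4 and 89.0 RPM in BY4741 of series 1, a log2 difference of 0.54 ± 0.11 (SE, adjusted p = 0.0164). NDE1 had 79.3, 54.4 and 61.8 RPM in BY4741ΔP, against 97.4, 96.5 and 156 RPM in BY4741, a log2 difference of -0.81 ± 0.19 (SE, adjusted p = 0.027). Neither gene overlapped between the groups, though BY4741 number 3 was well above numbers 1 and 2 for NDE1. The 2 groups did not overlap in 5 of the 39 members and in 26.4% of all genes tested. Without BY4741 number 2, and without BY4741ΔP number 3, neither call remained, and without BY4741 number 3 SDH1 alone was called. The 37 members not called had log2 differences from -0.52 in ATP18 to 0.55 in NDE2.

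NDE2 had 6.65, 4.38 and 5.42 RPM in BY4741ΔP, against 2.88, 3.47 and 3.89 RPM in BY4741, without overlap, but was not called (log2 difference 0.55, adjusted p = 0.0694). Per length, NDE2 made up 7.94% ± 0.312 of the external pair in BY4741ΔP and 5.80% ± 1.21 in Tpho84-Tcyc1, against 3.00% ± 0.534 in BY4741 (SD, n = 3 each); no test was made of this share. NDI1 had 75.3, 61.3 and 81.2 RPM in BY4741ΔP, against 67.1, 61.04 and 68.9 RPM in BY4741. CYC1 had 26.1, 30.3 and 20.4 RPM in BY4741ΔP, against 29.9, 23.7 and 46.6 RPM in BY4741, and CYC7 had 7.01, 4.12 and 3.79 RPM, against 5.85, 4.86 and 5.30 RPM in BY4741. These 3 genes overlapped between the groups, and so did HAP4, with 74.5, 56.1 and 67.3 RPM in BY4741ΔP, against 66.3, 74.2 and 83.5 RPM in BY4741. Of the other subunits of complex II, SDH2 had 84.3, 79.5 and 91.5 RPM in BY4741ΔP, against 74.3, 77.3 and 79.6 RPM in BY4741. SDH3 had 98.8, 109 and 108 RPM in BY4741ΔP, against 125, 118 and 116 RPM in BY4741, and SDH4 had 44.9, 46.4 and 57.2 RPM, against 48.9, 49.4 and 46.4 RPM in BY4741. SDH3 was lower in every BY4741ΔP library without being called, and the other 2 overlapped.

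BY4741ΔP number 2 decides how many members are called in this strain. Without it 20 were called, 5 higher (SDH1, QCR2, ATP1, NDI1 and NDE2) and 15 lower. Without it 32.5% of all genes tested were called, 22.7% higher and 9.8% lower, against 9.47% with all 3 libraries. The 15 lower included QCR8, QCR9, COX12 and ATP18, small subunits of complexes III, IV and V, with log2 differences of -0.59, -0.65, -0.52 and -0.75, where those with all 3 libraries were -0.40, -0.42, -0.36 and -0.52. ATP15, the epsilon subunit of the F1 part, had 75.2, 118 and 80.4 RPM in BY4741ΔP, and ATP20 had 43.7, 67.4 and 41.8 RPM, number 2 being the highest in both. Over all genes the median log2 difference was -0.01 in the shortest tercile by coding length and 0.14 in the longest, and all of the 15 members called lower but NDE1 lie in the shortest tercile.

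In Tpho84-Tcyc1, SDH2 and SDH1 were called higher and no member lower, where 7.97% of all genes were called, 4.42% higher and 3.55% lower. SDH2 had 104, 97.7 and 98.1 RPM in Tpho84-Tcyc1, against 74.3, 77.3 and 79.6 RPM in BY4741 of series 1, a log2 difference of 0.37 ± 0.08 (SE, adjusted p = 0.0194). SDH1 had 119, 104 and 109 RPM in Tpho84-Tcyc1, against 80.0, 77.4 and 89.0 RPM in BY4741, a log2 difference of 0.43 ± 0.11 (SE, adjusted p = 0.0412). SDH3 had 132, 136 and 132 RPM in Tpho84-Tcyc1, against 125, 118 and 116 RPM in BY4741, and SDH4 had 58.5, 52.7 and 54.9 RPM, against 48.9, 49.4 and 46.4 RPM in BY4741. None of the 4 subunits of complex II overlapped between the groups, which was so for 14 of the 39 members and for 42.9% of all genes tested. The 2 anchors were not called. The 37 members not called had log2 differences from -0.37 in NDE1 to 0.56 in CYC7. The 2 calls rest on all 6 libraries, since neither was kept when any 1 of them was left out. The 1 member called without BY4741 number 3 was another gene. Rescaling by TMM left SDH2 alone.

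CYC7 had 8.32, 7.89 and 8.81 RPM in Tpho84-Tcyc1, against 5.85, 4.86 and 5.30 RPM in BY4741, and NDE2 had 6.20, 4.05 and 5.56 RPM, against 2.88, 3.47 and 3.89 RPM in BY4741. Both were higher in every Tpho84-Tcyc1 library, with log2 differences of 0.56 and 0.50, and neither was called (adjusted p = 0.0703 and 0.102). CYC1 had 31.8, 28.8 and 33.3 RPM in Tpho84-Tcyc1, against 29.9, 23.7 and 46.6 RPM in BY4741, within the range of BY4741. NDE1 had 107, 84.2 and 74.8 RPM, against 97.4, 96.5 and 156 RPM in BY4741, NDI1 had 80.4, 73.9 and 77.6 RPM, against 67.1, 61.04 and 68.9 RPM in BY4741, and HAP4 had 66.8, 69.7 and 68.7 RPM, against 66.3, 74.2 and 83.5 RPM in BY4741. None of these 3 was called, although NDI1 was higher in every Tpho84-Tcyc1 library. Of the 39 log2 differences, 34 were above 0, as were 63.6% of those of all genes, with a median of 0.13, where that of all genes was 0.06.

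Between BY4741ΔP and Tpho84-Tcyc1 no member was called, where 0.312% of all genes were (limma), 0.242% higher and 0.0693% lower. At an unadjusted p under 0.05, 16 members were lower in BY4741ΔP and none higher, where 4.33% of all genes were lower and 4.55% higher. Of the 39 differences 36 were below 0, as were 50.6% of those of all genes. DESeq2 called 2 members lower, SDH3 and CYC7, and edgeR none. The median log2 difference was -0.21 for the members and about 0 for all genes. Without BY4741ΔP number 2, limma called 15 members lower and none higher, and 9.47% of all genes. CYC7 averaged 4.97 ± 1.78 RPM in BY4741ΔP and 8.34 ± 0.46 RPM in Tpho84-Tcyc1, and SDH3 averaged 105 ± 5.69 RPM in BY4741ΔP and 133 ± 1.98 RPM in Tpho84-Tcyc1 (SD, n = 3 each), with adjusted p = 0.203 and 0.156 in limma.

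In pho4Δ no member was called by limma, edgeR or DESeq2, where 0.223% of all genes were called, 0.0514% higher and 0.171% lower. In limma 2 members were lower and none higher at an unadjusted p under 0.05, where 4.52% of all genes were lower and 6.83% higher. These were QCR7 and CYC7, with log2 differences of -0.23 and -0.57 (adjusted p = 0.313 and 0.325). CYC7 had 4.39 and 2.43 RPM in pho4Δ, against 6.08 and 4.73 RPM in BY4741 of series 2. CYC1 had 24.0 and 22.1 RPM in pho4Δ, NDE1 110.2 and 95.7 RPM, NDE2 3.11 and 2.37 RPM and NDI1 80.1 and 81.9 RPM. Of these, CYC1, NDE1, NDE2 and NDI1 overlapped with BY4741, and the 4 subunits of complex II did so as well. SDH1 had 97.1 and 92.8 RPM in pho4Δ, SDH2 83.4 and 86.7 RPM, SDH3 86.3 and 83.1 RPM and SDH4 49.1 and 52.0 RPM. HAP4 had 90.2 and 108 RPM in pho4Δ, against 88.9 and 89.3 RPM in BY4741, and was not called. The 95% intervals of the 39 log2 differences in pho4Δ lay between -1.004 and 0.55, with CYC7 at the lowest bound.

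In pho84Δ limma called no member either, where 0.291% of all genes were called, 0.274% higher and 0.0171% lower, and edgeR called none. At an unadjusted p under 0.05, 10 members were higher and 2 lower, where 6.71% of all genes were higher and 5.03% lower. DESeq2 called CYT1 higher. CYT1 had 126 and 111 RPM in pho84Δ, against 95.9 and 83.8 RPM in BY4741, with a log2 difference of 0.40 (adjusted p = 0.169). SDH1 had 129.7 and 118 RPM in pho84Δ, SDH2 94.5 and 92.3 RPM, SDH3 84.6 and 86.2 RPM and SDH4 61.3 and 56.6 RPM, and SDH1 and SDH2 lay above both BY4741 libraries. NDE1 had 130.1 and 129 RPM in pho84Δ, NDE2 4.30 and 3.93 RPM and NDI1 90.8 and 84.0 RPM. CYC1 had 27.5 and 29.6 RPM, CYC7 5.81 and 4.90 RPM and HAP4 102 and 101 RPM in pho84Δ. Both cytochrome c genes overlapped with BY4741, while NDE2, NDI1 and HAP4 lay above both BY4741 libraries. The 2 groups did not overlap in 23 of the 39 members and in 45.3% of all genes tested. The 39 log2 differences ran from -0.32 in ATP18 to 0.55 in NDE2. Without BY4741 number 4, limma called 3 members higher, SDH4, CYT1 and NDE2, and 2.93% of all genes, so that these values depend on which of the 2 BY4741 libraries is used.

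Between pho4Δ and pho84Δ no member was called by limma or edgeR, where 0.497% of all genes were called by limma, 0.0171% higher and 0.479% lower. In limma 1 member was higher and 8 lower in pho4Δ at an unadjusted p under 0.05, where 2.69% of all genes were higher and 3.97% lower. DESeq2 called 2 lower in pho4Δ, SDH1 and CYT1. CYT1 averaged 89.2 ± 1.74 RPM in pho4Δ and 119 ± 10.7 RPM in pho84Δ, and SDH1 averaged 94.9 ± 3.05 RPM in pho4Δ and 124 ± 8.38 RPM in pho84Δ (SD, n = 2 each). The log2 differences were -0.40 and -0.38, with adjusted p = 0.133 and 0.269 in limma. The 39 differences ran from -0.56 in CYC7 to 0.37 in ATP18. QCR6, a small acidic subunit of complex III that is no member of the set, was the one gene of the wider pathway called in pho4Δ. It had 68.8 and 60.1 RPM in pho4Δ, against 131 and 149 RPM in BY4741, a log2 difference of -1.11 ± 0.12 (SE, adjusted p = 0.000192). In build R64 QCR6 is the next annotated gene to PHO4 on chromosome VI, at 224326 to 224769, beside PHO4 at 225020 to 225958. Whether its change is tied to the deletion beside it was not tested.

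The 2 groups of BY4741 also differed from each other. Of the 39 members 12 were higher and 4 lower in series 1 than in series 2, where 37.1% of all genes were called, 18.9% higher and 18.2% lower. ATP15 had 118, 97.9 and 91.7 RPM in BY4741 of series 1, against 42.7 and 42.5 RPM in BY4741 of series 2, a log2 difference of 1.24 ± 0.16 (SE, adjusted p = 1.35e-05). ATP18, a small subunit of the membrane part of ATP synthase, had 86.2, 65.0 and 46.4 RPM in series 1, against 24.8 and 28.1 RPM in series 2, with a log2 difference of 1.24. SDH3 had 125, 118 and 116 RPM in series 1, against 85.6 and 69.9 RPM in series 2, with a log2 difference of 0.62, and ATP20 differed by 0.65. These 4 calls, named after their values were seen, were the ones kept under every alternative. Without BY4741 number 5, 6 members and 22.2% of all genes were called. Series and any difference in preparation cannot be told apart, which is why each mutant was set against BY4741 of its own series.

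Coding length moved with the difference between the 2 BY4741 groups. Over all genes tested, the median log2 difference was 0.16 in the shortest tercile and -0.21 in the longest, and 31% of the shortest and 5.63% of the longest tercile were called higher in series 1. The members run from 180 to 1923 bases of coding sequence, and the 12 higher ones all lie in the shortest tercile. With the trend over length taken out, 5 members were higher and 8 lower in series 1. With the trend left in, 12 were higher and 4 lower, where 18.9% of all genes were higher and 18.2% lower. With BY4741 of series 2 as the control in place of its own, BY4741ΔP had 13 members called (8 higher, 5 lower) and Tpho84-Tcyc1 had 18 (16 higher, 2 lower). With that control 26.7% of all genes were called in BY4741ΔP and 34.1% of all genes in Tpho84-Tcyc1.

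**Figure D5:**
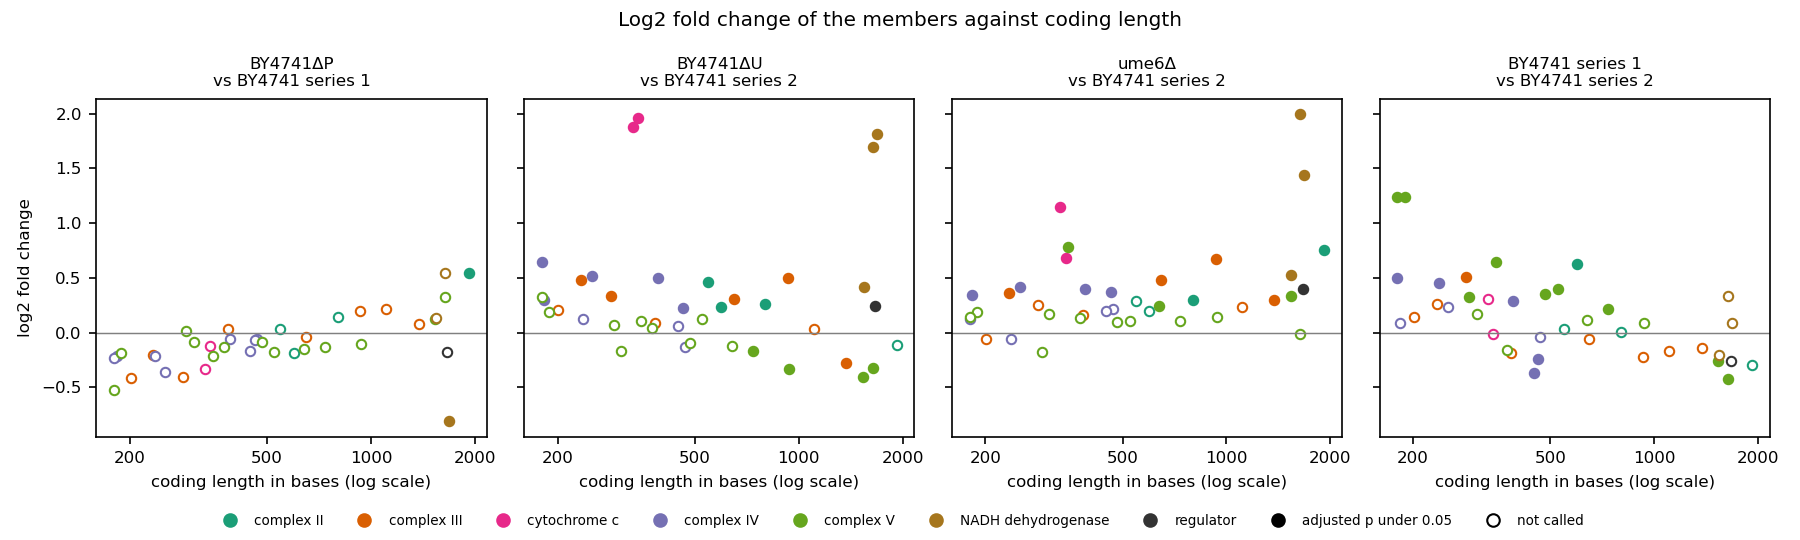
Log2 difference of each member against its coding length in bases (log scale) for BY4741ΔP, BY4741ΔU and ume6Δ against BY4741 of their series and for BY4741 of series 1 against series 2, coloured by complex and filled where called. In the last panel the short members ATP15 and ATP18 lie at 1.24, and in the first panel the 28 members of the shortest tercile have a median of -0.16 and SDH1, the longest, lies at 0.54.

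The wider pathway was described by lists of assembly factors, tricarboxylic acid cycle enzymes, other electron donors with ubiquinone synthesis, carriers, regulators, and further subunits with inhibitors. In BY4741ΔU, where 36.5% of all genes were higher and 13.2% lower, 32 of 38 assembly factors were called higher and none lower, with a median log2 difference of 0.56, where that of all genes was 0.15, and TMM rescaling left 28 higher and 1 lower. Of 11 tricarboxylic acid cycle genes 7 were higher and 1 lower, and TMM rescaling gave 6 higher and 3 lower. Those with the lowest p were IDH2 and IDH1, the subunits of NAD-dependent isocitrate dehydrogenase, and ACO1, aconitase. IDH2 had 1545, 1643 and 1529.8 RPM in BY4741ΔU, against 555 and 509 RPM in BY4741, with a log2 difference of 1.56, that of IDH1 was 1.66 and that of ACO1 1.34. Of the 12 electron donor and ubiquinone genes 6 were higher, of 6 carriers 1 was higher and 2 lower, and of 8 further subunits and inhibitors tested 5 were higher and 2 lower. TMM rescaling gave 5 electron donor and ubiquinone genes higher and 1 lower, 1 carrier higher and 3 lower, and 5 further subunits and inhibitors higher and 2 lower. Of the 5 regulators 4 were higher and none lower, and they are named after their values were seen: HAP2, HAP3 and HAP5, the DNA-binding partners of HAP4, were called higher by 0.46, 0.43 and 0.40, as was ROX1, a repressor of hypoxic genes, by 0.55 on the log2 scale. After TMM rescaling HAP2 and ROX1 alone of the 5 regulators were called.

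In ume6Δ the pathway genes with the lowest p were GUT2, the glycerol 3-phosphate dehydrogenase that feeds the chain, KGD1 of the tricarboxylic acid cycle, and CYB2, the lactate dehydrogenase that reduces cytochrome c. GUT2 had 158, 164 and 159.5 RPM in ume6Δ, against 61.7 and 57.2 RPM in BY4741, with a log2 difference of 1.42. CYB2 had 28.9, 24.1 and 21.7 RPM in ume6Δ, against 3.10 and 5.47 RPM in BY4741, with a log2 difference of 2.32, and KGD1 differed by 1.04. Among assembly factors 6 of 38 were higher and 3 lower, and among tricarboxylic acid cycle genes 3 of 11 were higher and none lower, where 23.1% of all genes were higher and 11.3% lower. After TMM rescaling 5 assembly factors were higher and 5 lower, and 3 tricarboxylic acid cycle genes were higher and 1 lower. Of the carriers 3 of 6 were higher and 1 lower, of the electron donors and ubiquinone genes 3 of 12 were higher and 1 lower, of the further subunits 4 of 8 were higher, and of the regulators 1 of 5, ROX1, was higher. Set directly against BY4741ΔU, ume6Δ had 2 assembly factors higher and 31 lower, 3 tricarboxylic acid cycle genes higher and 6 lower, where 20.1% of all genes were higher and 28.7% lower. TMM rescaling of this comparison gave 3 assembly factors higher and 29 lower, and 3 tricarboxylic acid cycle genes higher and 5 lower. IDH1 was lower in ume6Δ with a log2 difference of -1.86.

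In series 1 pathway genes were called in some of the lists. In BY4741ΔP, 1 of 38 assembly factors was higher and 1 lower. There 2 of 11 tricarboxylic acid cycle genes and 1 of 5 regulators were also higher, where 5.8% of all genes were higher and 3.67% lower. Among these, RCF2, a factor of respiratory supercomplexes, was lower (-0.42), and ACO1 (0.36) and HAP1 (0.34), a haem-dependent activator, were higher on the log2 scale. After TMM rescaling no tricarboxylic acid cycle gene or regulator was called, ACO1 and HAP1 included. Of the assembly factors 2 were then lower and none higher, where 3.86% of all genes were higher and 5.26% lower. In Tpho84-Tcyc1, 3 of 38 assembly factors, 2 of 11 tricarboxylic acid cycle genes and 3 of 8 further subunits and inhibitors tested were higher. No pathway gene was lower there, where 4.42% of all genes were higher and 3.55% lower. COX23, a factor for complex IV (0.41), INH1, the inhibitor of ATP synthase (0.55), and CIT1, citrate synthase (0.34), had the lowest p. After TMM rescaling 2 assembly factors were higher and 2 lower, and 1 tricarboxylic acid cycle gene was higher. None of the further subunits and inhibitors, INH1 included, was then called, where 2.77% of all genes were higher and 5.61% lower. No pathway gene was called in pho84Δ or between BY4741ΔP and Tpho84-Tcyc1.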

How the data were processed

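The deposited table holds RPM for 7123 named features in 21 libraries of polyadenylated RNA made with a stranded kit, per the labels' protocols. HISAT2, featureCounts and edgeR are named in the submitters' processing notes. Build, annotation, strand setting and versions are not given in the sources used here. Of the deposited RPM values, 100% came out as whole reads (within 0.01 reads), and 1 read was worth 0.0201 to 0.0911 RPM. Genes with 1 RPM or more in 3 libraries (series 1) or 2 libraries (series 2, and all 21) were tested: 5775, 5840 and 5927. The test was limma 3.58.1 (trend) in R 4.3.3 on log2(RPM + 1), which understates changes of low genes, with 1 mean per group, all groups of a series in 1 fit, and Benjamini-Hochberg adjustment over all genes tested. Calls have an adjusted p under 0.05. The 2 BY4741 groups were compared in a fit of all 21 libraries. edgeR 4.0.16 and DESeq2 1.42.0 on the recovered reads, TMM rescaling, pseudocounts, filters and left-out libraries were alternatives. The procedure was also run on simulated counts of a fixed dispersion (0.01), without an outlying library or a trend with coding length. That run cannot show how the calls fare under either. The 4 emptied lines of the table were not used.

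The members and lists were chosen with earlier results of these data known. The libraries' values were to be printed for HAP4, CYC1, CYC7, the NADH dehydrogenases, SDH1 to SDH4 and, in each comparison, up to 4 called members with the lowest p, and up to 3 called pathway genes were to be named. CYT1, COX9, ATP2, ATP15, ATP18 and ATP20, where printed beyond this, were chosen after their values were seen.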

Additional observations from a re-analysis of the deposited data

How the results depend on the processing

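Leaving out each library in turn gave 0 to 20 members called in BY4741ΔP, 0 to 1 in Tpho84-Tcyc1, 15 to 23 in BY4741ΔU, 13 to 21 in ume6Δ, 0 in pho4Δ, 0 to 3 in pho84Δ, 0 to 15 between BY4741ΔP and Tpho84-Tcyc1, 16 to 19 between ume6Δ and BY4741ΔU, 0 between pho4Δ and pho84Δ, and 6 to 18 between the BY4741 groups. Where this left 1 library in a group, it was assumed to vary like the other groups. With 1 library left out, 1.09% to 32.5% of all genes were called in BY4741ΔP and 1.52% to 5.71% in Tpho84-Tcyc1. Between the BY4741 groups the value of 6 was that without BY4741 number 5. Without the filter on low values BY4741ΔP and Tpho84-Tcyc1 had 1 call each. Tpho84-Tcyc1 also had 1 call after TMM rescaling and 1 by edgeR. DESeq2 called 1 member in pho84Δ, 2 between BY4741ΔP and Tpho84-Tcyc1 and 2 between pho4Δ and pho84Δ. With BY4741 of series 2 as the control, 13 members were called in BY4741ΔP and 18 in Tpho84-Tcyc1. Changes of sign in the log2 difference are listed where the member was called with either control. In BY4741ΔP they were those of SDH3 (0.44), COX13 (0.23), ATP15 (1.05), ATP16 (0.26), ATP18 (0.72) and ATP20 (0.43). In Tpho84-Tcyc1 they were those of COX6 (-0.30) and COX8 (0.45).

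A correction for the trend with coding length and a crossed block were added after the data were seen. With the length trend removed, 4 members and 14.6% of all genes were called in BY4741ΔP. Between ume6Δ and BY4741ΔU 26 members were then called, against 17 members and 48.8% of all genes with the trend left in. Changes of sign in the log2 difference are listed where the member was called with or without the trend. They were those of COX5A (-0.00407) and ATP14 (-0.19) in BY4741ΔU, and of ATP7 (0.20) and ATP15 (0.20) between ume6Δ and BY4741ΔU. Between the BY4741 groups they were those of QCR9 (-0.36), COX7 (-0.45), COX8 (-0.00351), COX9 (-0.0446) and TIM11 (-0.0556). The cause of these changes was not tested. With the replicate number as a block, 3 members and 11.4% of all genes were called in BY4741ΔP. In Tpho84-Tcyc1 the block gave 2 members and 8.21% of all genes. It gave 0 members between BY4741ΔP and Tpho84-Tcyc1, 19 between ume6Δ and BY4741ΔU (17 without the block) and 0 between pho4Δ and pho84Δ. Same-numbered libraries correlated at -0.23 to 0.28 in series 1, and differently numbered ones at -0.35 to 0.22. Whether a shared number stands for a shared batch was not tested. With the numbers of pho4Δ and pho84Δ crossed, 1 member was called. No paired analysis was possible for the series 2 mutants against BY4741 because its numbers 4 and 5 are not shared. Of the values of single members under the alternatives, 157 gained a call and 146 lost one with the sign kept. A further 17 changed sign and were called in the main fit, the alternative or both. The other 4321 kept their side of the threshold, and changes of sign among those not called were not counted. Precision is limited by groups of 2 libraries in pho4Δ, pho84Δ and BY4741 of series 2, and by few reads in NDE2.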
